A study of Rattus norvegicus with 16 samples.

Results

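A set of 6 genes that carry glucose from the blood to pyruvate and on to lactate was followed in hearts of rats given doxorubicin (DOX), an anthracycline used in chemotherapy. They were chosen by Ensembl identifier for their place in this route: the glucose transporters Slc2a1 (ENSRNOG00000007284) and Slc2a4 (ENSRNOG00000017226), hexokinase Hk2 (ENSRNOG00000006116), the glycolytic enzyme Gapdh (ENSRNOG00000018630), and the lactate dehydrogenase subunits Ldha (ENSRNOG00000013009) and Ldhb (ENSRNOG00000013000). These are 6 of the 32545 genes counted, and all 6 were among the 13607 genes that passed the filter on low counts. RNA-seq was run on heart tissue of male Wistar rats. The saline control group held 10 hearts (rats 5 to 10 and 34 to 37), and the high DOX group held 6 hearts (rats 30 to 33, 38 and 39) from animals given 5 weekly intravenous injections of 3 mg/kg DOX. Control animals received saline in place of the drug. The labels give 5 injections for them as well, whereas the study describes weekly saline for 6 weeks. No gene was deleted or added in any animal.

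Glucose enters heart muscle cells through GLUT1, the product of Slc2a1, which sits largely at the cell surface at rest, and through GLUT4, the product of Slc2a4, which is held inside the cell and moved to the surface by insulin or contraction. Hexokinase 2 traps the sugar as glucose 6-phosphate, and glyceraldehyde-3-phosphate dehydrogenase (Gapdh) acts at the middle of glycolysis and is often used as a loading reference. Lactate dehydrogenase is a tetramer that interconverts pyruvate and lactate, with the B subunit (Ldhb) predominant in the healthy heart and the A subunit (Ldha) predominant in skeletal muscle and in tissue short of oxygen.

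Hk2 and Ldha were correlated over the 16 hearts, though in scaled counts only weakly among saline hearts alone. Ldha with Ldhb and Slc2a1 with Slc2a4 are the pairs whose ratios were compared. For these reasons the stretches upstream of 4 of these genes are shown. Each is the 250 bases before the RefSeq gene start on GRCr8, a later build than the one the reads were aligned to, written 5′ to 3′ on the gene's own strand. Capitals mark ACGTG and its reverse complement CACGT, letters bound by hypoxia-inducible factors at some of their sites.
Slc2a1, chr5:138002272-138002521, plus strand: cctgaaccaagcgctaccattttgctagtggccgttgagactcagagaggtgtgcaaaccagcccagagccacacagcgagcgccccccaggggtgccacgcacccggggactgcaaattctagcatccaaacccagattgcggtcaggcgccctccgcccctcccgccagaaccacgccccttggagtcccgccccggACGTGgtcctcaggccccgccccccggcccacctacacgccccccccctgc
Hk2, chr4:116841276-116841525, minus strand: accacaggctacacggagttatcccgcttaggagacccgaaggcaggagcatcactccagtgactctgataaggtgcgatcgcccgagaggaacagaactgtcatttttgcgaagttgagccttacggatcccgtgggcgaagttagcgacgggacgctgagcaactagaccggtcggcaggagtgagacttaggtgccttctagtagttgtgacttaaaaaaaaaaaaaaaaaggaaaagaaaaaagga
Ldha, chr1:106507842-106508091, plus strand: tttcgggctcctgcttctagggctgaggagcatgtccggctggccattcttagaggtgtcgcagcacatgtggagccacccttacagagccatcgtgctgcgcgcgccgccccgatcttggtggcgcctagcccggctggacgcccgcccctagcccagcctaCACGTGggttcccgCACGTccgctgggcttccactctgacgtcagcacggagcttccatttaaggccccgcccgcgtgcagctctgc
Ldhb, chr4:177177409-177177658, minus strand: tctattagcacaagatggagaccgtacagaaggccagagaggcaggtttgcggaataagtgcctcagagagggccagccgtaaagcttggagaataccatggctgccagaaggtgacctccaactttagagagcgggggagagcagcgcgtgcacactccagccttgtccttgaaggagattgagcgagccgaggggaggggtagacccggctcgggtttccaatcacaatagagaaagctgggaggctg
The Ldha stretch held 3 matches, at 87, 86 and 73 bases before the start, of which the first and second overlap as the palindrome CACGTG. The Slc2a1 stretch held 1 match, 51 bases before the start, and the Gapdh stretch (not shown) held 1 at 121 bases. The Hk2 and Ldhb stretches held none of these letters. Other forms of the sites these factors bind were not searched for. Among 33469 RefSeq promoters of the same length, 16.6% held ACGTG on either strand and 5.59% held CACGTG. A match is a run of letters and was not tested as a binding site. No stretch is given for Slc2a4.

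The 16 libraries held 13784896 to 18025615 counts assigned to genes. The TMM factor, edgeR's correction for the make-up of a library, was 1.36 in high DOX rat 32 and 0.926 to 1.01 in the other 5 DOX hearts, against 0.885 to 1.20 in saline hearts. Saline rat 37 held the highest Slc2a1 and the lowest Slc2a4 and Gapdh levels of its group. Whether rat 37 was correctly labelled or was unwell was not tested; it was kept in the group its label gives, and the calls for Slc2a4 and for the ratio of the transporters pass only without it. Values that turn on rat 32 or rat 37 are given with and without it for the main comparisons. All 6 DOX hearts carry numbers 30 to 39, as do 4 of the 10 saline hearts, so comparisons were repeated within those numbers, although the labels do not call the number ranges batches. The labelled tissue was not checked against cell type markers, since the tables used here do not pair the identifiers with symbols. Other genes of glycolysis and lactate transport were not analysed here for the same reason.

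Levels of different genes were compared as TPM, in which counts are divided by gene length and scaled to the same total in each heart. Ldhb was the most abundant of the 6 at 3031 ± 476 TPM (SD, n = 16 hearts), followed by Gapdh at 1493 ± 384 and Ldha at 881 ± 143. All 3 lay at or above the 98.8 percentile of tested genes in each heart. Slc2a4 followed at 183 ± 38.9 TPM, Hk2 at 29.1 ± 7.44 TPM and Slc2a1 at 12.3 ± 4.25 TPM. Ldhb exceeded Gapdh, Ldha exceeded Slc2a4 and Slc2a4 exceeded Hk2 in 16 of 16 hearts. Gapdh exceeded Ldha in 14 hearts, the exceptions being saline rats 6 and 37, and Hk2 exceeded Slc2a1 in 15, the exception being DOX rat 32. The ranges of Gapdh and Ldha overlapped over the 16 hearts, at 655 to 2260 TPM against 651 to 1168 TPM. The ranges of Hk2 and Slc2a1 overlapped as well, at 18.1 to 48.6 TPM against 7.16 to 22.2 TPM.

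**Figure D1:**
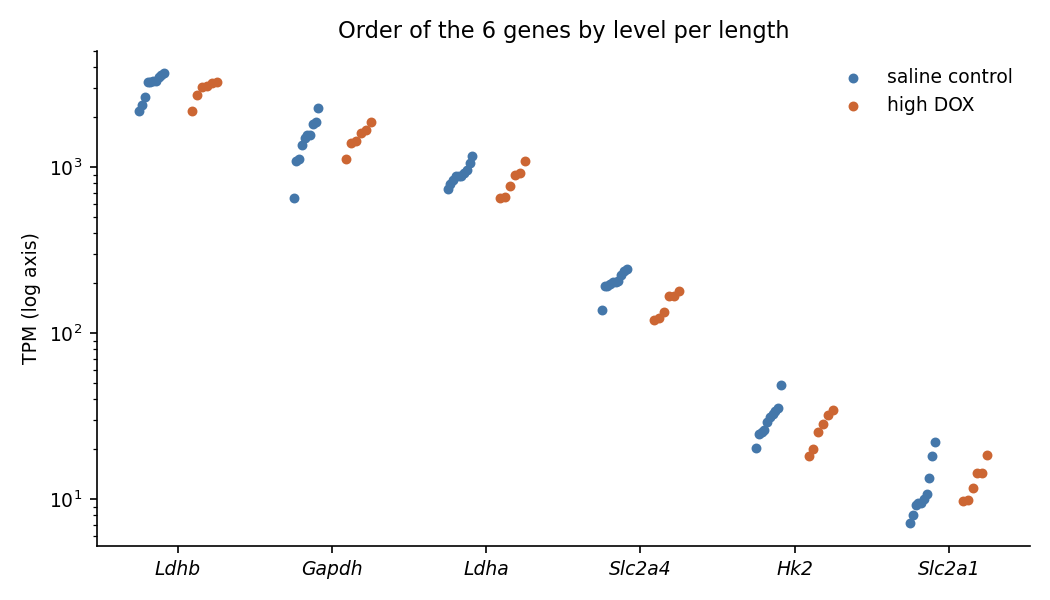
Level per length of each gene in every heart, in TPM on a log axis, with genes ordered by their mean over 16 hearts and 1 point a heart (blue saline control, orange high DOX). Ldhb lies above Gapdh in all 16 hearts, Slc2a4 lies between Ldha and Hk2 without touching either, and both groups share the same order of means.

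The comparison of high DOX with saline hearts asked whether the message for glucose uptake and lactate metabolism differed after treatment. Slc2a4 was the gene with the largest difference: its fitted level was 29.8% lower in DOX hearts, but this did not pass the test over all genes with all 16 hearts in the fit. The other 5 genes differed by 0.20 or less on the log2 scale. With edgeR's quasi-likelihood test and Benjamini-Hochberg adjustment, 0 of the 6 genes passed an adjusted p of 0.05, where 851 of 13607 genes (6.25%) did. At an unadjusted p under 0.05, 1 of the 6 (Slc2a4) and 3314 of the 13607 genes tested passed. Slc2a4 ranked 1894 of those genes by edgeR p, so its unadjusted p does not set it apart. The 2 groups did not overlap in TMM-scaled CPM for 0 of the 6 genes and for 0.889% of all genes tested. DESeq2 also called 0 of the 6. In bulk tissue, fewer cells of a type and less RNA per cell cannot be told apart.

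Leaving out saline rat 37 raised the calls to 1762 of 13530 genes (13.0%), with Slc2a4 among them and the other 5 genes not. Within rats 30 to 39, where 4 saline hearts met 6 DOX hearts, edgeR called 0 of 13730 genes (0%), with 1891 at an unadjusted p under 0.05. Without rat 37 that fit called 307 of 13946 genes (2.20%), again with 0 of the 6 among them. Slc2a4 had an unadjusted p under 0.05 there, as did 2547 of the 13946 genes.

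**Figure D2:**
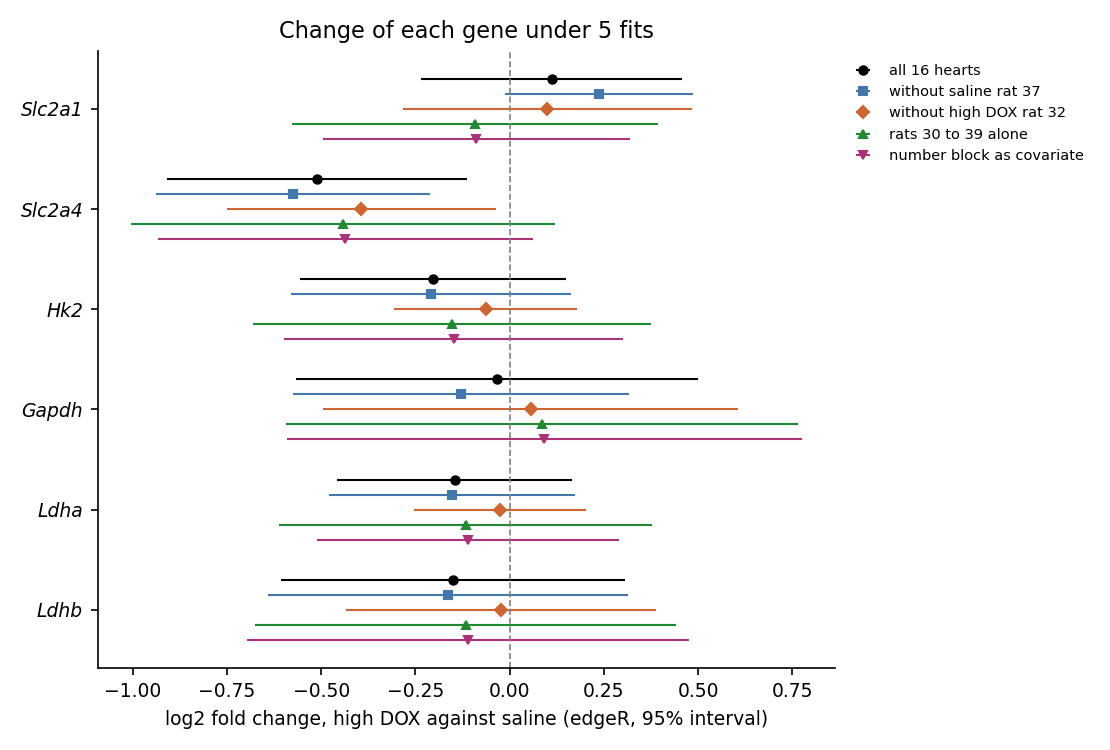
Log2 fold change of each gene in high DOX against saline hearts with its 95% interval (edgeR), in 5 fits: all 16 hearts, without saline rat 37, without DOX rat 32, rats 30 to 39 alone, and with the number range as a covariate. Slc2a4 lies below 0 in each of the 5 fits, from -0.57 to -0.39, while Slc2a1 and Gapdh change sign between fits; within rats 30 to 39 their signs turn again without rat 37, to 0.18 and -0.16.

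Slc2a4, the insulin-responsive transporter, had 231 CPM (counts scaled to a common library size by TMM factors) in the lowest saline heart, rat 37, a median of 420 and 489 in the highest, rat 34. The DOX hearts had 157 in the lowest, rat 32, a median of 290 and 355 in the highest, rat 33. All 6 DOX hearts lay below the saline median and 7 of 10 saline hearts lay above every DOX heart, with saline rats 6, 36 and 37 at 265, 310 and 231 CPM inside the DOX range. The log2 fold change was -0.51 ± 0.19 (SE), a ratio of 0.702 with a 95% interval of 0.533 to 0.924 (edgeR p = 0.0147, adjusted p = 0.106). Without rat 37 the log2 fold change was -0.57 and passed (edgeR adjusted p = 0.0378), and without DOX rat 32 it was -0.39 and did not.

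On the deposited TPM scale fewer hearts of the groups overlapped for Slc2a4, although the difference was no larger: the saline median was 1.36 times the DOX median, against 1.45 times on the CPM scale. Saline hearts held 137 to 243 TPM with a median of 204, and DOX hearts 120 to 179 TPM with a median of 150. There, 9 of the 10 saline hearts lay above every DOX heart and the exception was rat 37 at 137 TPM, with rats 6 and 36 at 197 and 205 TPM. Limma on log2(TPM + 1) gave a difference of -0.46 ± 0.12 (SE) with an adjusted p of 0.0554, again short of the threshold. Within rats 30 to 39 the log2 fold change was -0.44, a ratio of 0.736 with a 95% interval of 0.498 to 1.09 (edgeR adjusted p = 0.459), and with the number range as a covariate it was -0.44 as well (adjusted p = 0.419). Both of those intervals included no difference, and both turned on rat 37. Without it the log2 fold change within rats 30 to 39 was -0.61, a ratio of 0.656 with a 95% interval of 0.450 to 0.956 (edgeR p = 0.032, adjusted p = 0.223). With the covariate and without rat 37 the ratio was 0.656 with an interval of 0.468 to 0.921 (edgeR p = 0.0182, adjusted p = 0.172), so neither fit passed over all genes. Without DOX rat 32 instead, the log2 fold change within rats 30 to 39 was -0.32 (edgeR p = 0.162, adjusted p = 0.461). With the covariate and without rat 32 it was -0.32 as well (edgeR p = 0.140, adjusted p = 0.499).

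Slc2a1, the transporter largely at the surface at rest, had 16.3 CPM in the lowest saline heart, a median of 20.7 and 38.8 in the highest, rat 37. Treated hearts had 19.6, 24.4 and 28.5 CPM. Of the 6 DOX hearts, 5 lay above the saline median, yet saline rat 37 lay above all of them and rat 36, at 28.3 CPM, above all but 1. The log2 fold change was 0.11 ± 0.16 (SE) with a 95% interval of -0.23 to 0.46 (edgeR adjusted p = 0.717). It was 0.24 without rat 37. Within rats 30 to 39 it was -0.09, and 0.18 there without rat 37, so the negative sign in that range turned on 1 saline heart. The intervals of these fits all included 0. On the TPM scale all 6 DOX hearts lay above the saline median of 9.74, though 3 saline hearts, rats 6, 36 and 37, lay above the DOX median of 13.1. Behind these levels stood 221 to 659 counts a heart.

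**Figure D3:**
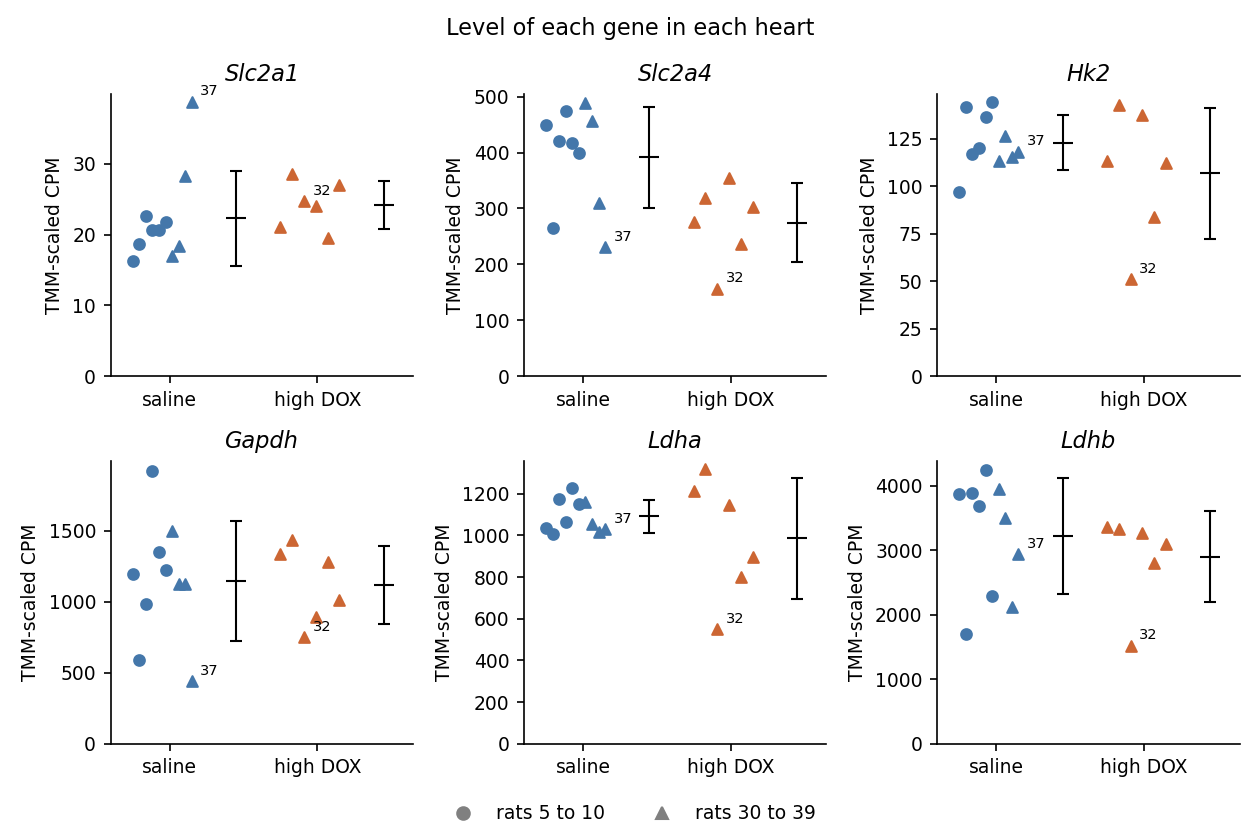
TMM-scaled CPM of each gene in every heart, with 1 panel a gene, each axis from 0, circles for rats 5 to 10 and triangles for rats 30 to 39; the black bar is the group mean ± SD (n = 10 saline, n = 6 high DOX). The 6 DOX hearts lie at 157 to 355 CPM for Slc2a4, below the saline median of 420, and DOX rat 32 is the lowest DOX heart for Slc2a4, Hk2, Gapdh, Ldha and Ldhb.

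The ratio of Slc2a1 to Slc2a4 TPM within a heart sets the transporters against each other and needs no scaling between libraries. It was 0.0337 in the lowest saline heart, a median of 0.0499 and 0.162 in the highest, rat 37. The DOX hearts had ratios of 0.0654, 0.0830 and 0.153, the last in rat 32. All 6 DOX hearts lay above the saline median, 7 of 10 saline hearts lay below every DOX heart, and rats 6, 36 and 37 (0.0683, 0.0883 and 0.162) were the saline hearts inside or above the DOX range. The mean log2 ratio was 0.67 higher in DOX hearts, a ratio of 1.59 with a 95% interval of 0.969 to 2.42 (2-sided exact permutation test over 8008 regroupings, p = 0.0609, adjusted over the 2 ratios tested p = 0.122). The smallest p that design allows is 0.00025.

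The call turned on 1 heart. Without saline rat 37 the difference was 0.84 (exact permutation p = 0.0048, adjusted 0.00959), and without both rat 37 and DOX rat 32 it was 0.68 (exact p = 0.012, adjusted 0.024). Within rats 30 to 39 it was 0.40 (exact permutation p = 0.457), rising to 0.84 (exact p = 0.143) there without rat 37 and falling to 0.24 (exact p = 0.667) without rat 32. The group medians of the parts were 9.74 and 13.1 TPM for Slc2a1 in saline and DOX hearts, and 204 and 150 TPM for Slc2a4.

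Hk2, the insulin-regulated hexokinase of muscle, had 96.9 CPM in the lowest saline heart, a median of 119 and 144 in the highest. Among DOX hearts it was 51.2 in rat 32, a median of 113 and 143 in rat 31. Of the 6 DOX hearts, 4 lay below the saline median, and rats 32 and 38 lay below every saline heart. The log2 fold change was -0.20 ± 0.17 (SE) with a 95% interval of -0.56 to 0.15 (edgeR adjusted p = 0.487), and it was -0.06 without rat 32.

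Gapdh, which oxidizes glyceraldehyde 3-phosphate, had 442 CPM in the lowest saline heart, rat 37, a median of 1161 and 1916 in the highest, rat 8. DOX hearts had 751, 1145 and 1431 CPM, all within the saline range. The saline median was 1.01 times the DOX median, while the saline hearts alone spanned a 4.33-fold range. The log2 fold change was -0.03 ± 0.25 (SE) with a 95% interval of -0.57 to 0.50 (edgeR adjusted p = 0.950), and its sign depended on the hearts and the scale. It was 0.09 on the TPM scale, 0.06 without DOX rat 32, 0.09 within rats 30 to 39 and -0.16 there without saline rat 37. Gapdh varied by 36.9% (coefficient of variation) between saline hearts, the widest of the 6 genes on the CPM scale. The RefSeq table lists 81 loci named as Gapdh pseudogenes, so its counts are uncertain where reads match a copy.

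Ldha, the subunit of muscle-type lactate dehydrogenase, had 1005 CPM in the lowest saline heart, a median of 1059 and 1226 in the highest. In DOX hearts it had 549 in rat 32, 1019 at the median and 1319 in rat 31. On this scale saline hearts were close together while DOX hearts lay on both sides of them. Rats 32, 38 and 39 lay below every saline heart and rat 31 above every one. On the TPM scale 2 DOX hearts lay below every saline heart and 0 above every one, rat 31 (1083 TPM) being under saline rat 6 (1168 TPM). The coefficient of variation was 7.16% in saline and 29.4% in DOX hearts on the CPM scale and 13.8% and 20.2% on the TPM scale. The contrast in spread was thus much smaller on the TPM scale. That scale differs from scaled CPM in more than the TMM factor, and the reason was not tested. The log2 fold change was -0.15 ± 0.15 (SE) with a 95% interval of -0.46 to 0.17 (edgeR adjusted p = 0.588), and -0.03 without rat 32. The table lists 30 loci named as Ldha pseudogenes and 1 for Ldhb, so the same uncertainty about shared reads applies.

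Ldhb, the heart-type subunit, had 1704 CPM in the lowest saline heart, rat 6, a median of 3594 and 4247 in the highest. In DOX hearts it had 1519 in rat 32, a median of 3183 and 3367 in the highest. All 6 DOX hearts lay below the saline median, but 4 of the 10 saline hearts lay within the DOX range. The log2 fold change was -0.15 ± 0.22 (SE) with a 95% interval of -0.61 to 0.31 (edgeR adjusted p = 0.712), and -0.02 without rat 32.

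Ldhb message exceeded Ldha message in every heart, and no difference in their ratio between the groups was detected. Ldha to Ldhb was 0.224 in the lowest saline heart, a median of 0.252 and 0.494 in the highest. In DOX hearts it was 0.239, 0.298 and 0.332. The mean log2 ratio differed by -0.06 with a 95% interval of -0.45 to 0.29 (2-sided exact permutation test, p = 0.742, adjusted p = 0.742), an interval that includes ratios from 0.732 to 1.22 of the saline mean.

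The widest differences in this ratio lay among untreated animals. Saline rats 6, 10 and 36 had ratios of 0.494, 0.422 and 0.402, above every DOX heart, and the other 7 saline hearts had 0.224 to 0.294. The same 3 hearts had the lowest saline Ldhb levels, at 1704, 2284 and 2120 CPM, while their Ldha levels were 1005, 1150.4 and 1018 CPM against 1030.4 to 1226 CPM in the others. On the TPM scale, which the ratio uses, their Ldhb levels were 2364, 2186 and 2627, below the saline median of 3271. Their Ldha levels on that scale were 1168, 922 and 1056 TPM, above the saline median of 886. Rats 6 and 36 also had the highest saline TMM factors, 1.20 and 1.14, whereas rat 10 had 0.985; the part of library make-up in these values was not tested. Rats 6 and 10 come from the lower number range and rat 36 from the range shared with DOX.

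**Figure D4:**
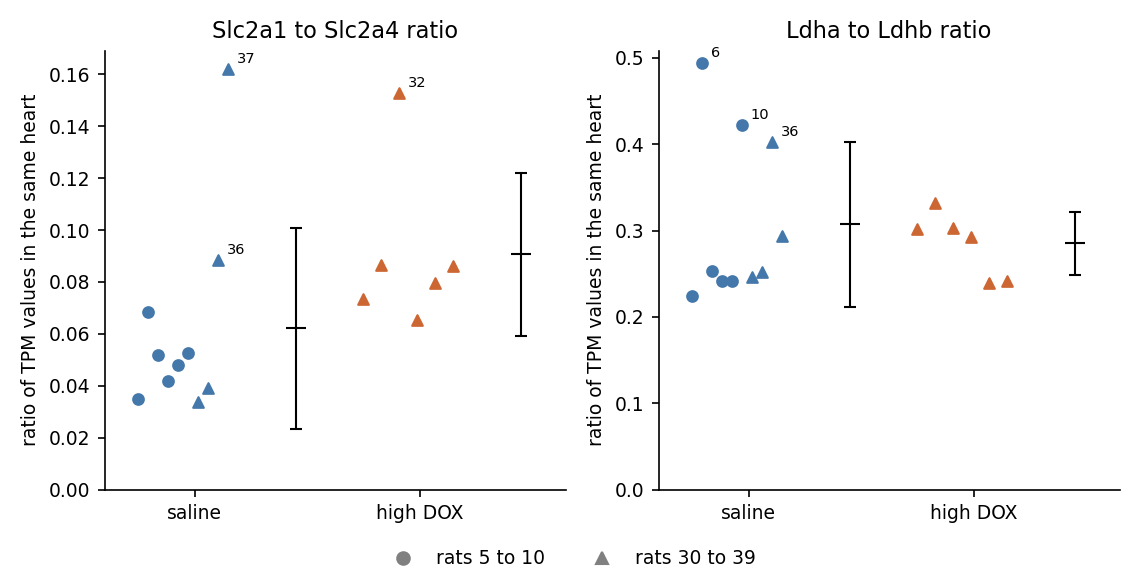
Ratio of TPM values within each heart for Slc2a1 to Slc2a4 (left) and Ldha to Ldhb (right), with circles for rats 5 to 10, triangles for rats 30 to 39 and the group mean ± SD as a black bar (n = 10 saline, n = 6 high DOX). On the left the 6 DOX hearts lie at or above 0.0654 while 7 saline hearts lie below that, and on the right saline rats 6, 10 and 36 lie above all DOX hearts.

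How the genes varied together between hearts was measured after subtracting each group's mean from log2 CPM, over 16 hearts and 15 pairs, with 100000 permutations within groups and Benjamini-Hochberg adjustment. Of the 15 pairs, 5 passed an adjusted p of 0.05, all of them positive and none including Slc2a1. Hk2 and Ldha had the highest correlation (Pearson r = 0.869, permutation p = 0.00372, adjusted p = 0.0117; Spearman rho = 0.603, permutation p = 0.0427, adjusted p = 0.128). Slc2a4 was correlated with Ldhb (r = 0.783, permutation adjusted p = 0.0114, rho = 0.644, adjusted p = 0.0622), with Gapdh (r = 0.740, permutation adjusted p = 0.0114, rho = 0.503, adjusted p = 0.139) and with Ldha (r = 0.658, permutation adjusted p = 0.0117, rho = 0.618, adjusted p = 0.0885). Ldha and Ldhb were correlated at r = 0.639 (permutation adjusted p = 0.0111, rho = 0.709, adjusted p = 0.0036). Taken by group, Hk2 and Ldha had r = 0.246 in saline hearts and r = 0.951 in DOX hearts. Among the 5 pairs only Slc2a4 with Gapdh had the higher r in saline hearts, at 0.889 against 0.447 in DOX hearts.

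The calls turned on DOX rat 32, the library with the highest TMM factor, which was the lowest DOX heart for all 5 genes concerned. Without it 0 pairs passed, although the 5 correlations stayed positive at 0.373 to 0.732. With the pair of hearts farthest from the median of the first gene left out, r was 0.580 for Hk2 and Ldha, 0.829 for Slc2a4 and Ldhb, 0.527 for Slc2a4 and Gapdh, 0.456 for Slc2a4 and Ldha, and 0.428 for Ldha and Ldhb. In saline hearts alone only Slc2a4 with Gapdh passed (r = 0.889, n = 10, permutation adjusted p = 0.018). On log2(TPM + 1), which applies no TMM factor, 1 pair passed: Hk2 with Ldha (r = 0.898, permutation adjusted p = 0.00015, its unadjusted p of 1e-05 being the smallest that 100000 permutations can give). There Ldha with Ldhb was at r = -0.05, so that pair's relation depended on the scaling.

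**Figure D5:**
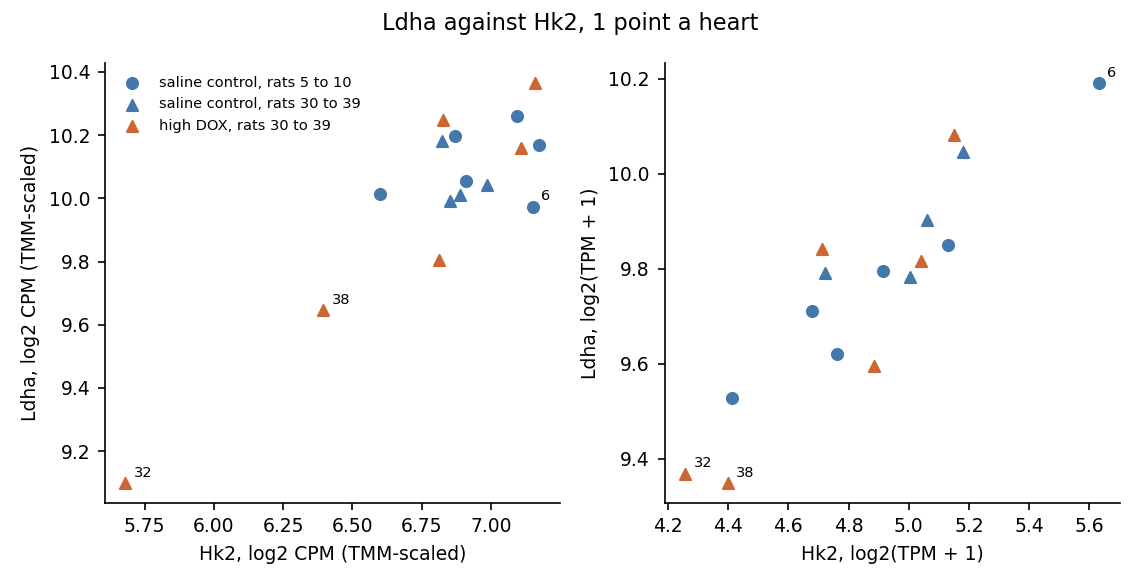
Ldha against Hk2 with 1 point a heart, as log2 CPM with TMM scaling (left) and as log2(TPM + 1) (right), blue for saline control and orange for high DOX, circles for rats 5 to 10 and triangles for rats 30 to 39. On the left rat 32 lies far below the other hearts, and on the right the hearts of both groups spread along 1 line with rats 32 and 38 at its lower end and saline rat 6 at its upper end.

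Over the 8543 genes whose mean log2 CPM reached 3, the likeness of each gene's pattern over the 16 hearts was described by Pearson r of log2 CPM, group difference included and without a test. For Hk2, Ldha ranked 2 of all these genes (r = 0.885), and for Ldha, Hk2 ranked 13. For Slc2a4 the closest of the 6 was Ldhb (r = 0.729, rank 815), and for Gapdh it was Slc2a4 (r = 0.593, rank 675). Slc2a1 had no near partner among the 6: its closest was Hk2 at r = 0.02, and its lowest value was r = -0.50 with Slc2a4. The hearts share these libraries and their scaling, so these values describe the 16 samples only.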

How the data were processed

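Heart RNA was sequenced in 16 libraries, 10 saline control and 6 high DOX, grouped by the GEO labels. Polyadenylated RNA was made into stranded paired-end libraries, aligned to Rnor 6.0 with HISAT2 and counted over Ensembl exons with featureCounts (Subread 1.5.0) at default settings, which use no strand and leave out fragments that map to several places. The authors deposited 2 tables: raw counts per gene, and TPM values per gene, which the authors scaled by gene length and library. TPM carries no correction for library make-up.

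The deposited counts were tested with edgeR 4.0.16 (R 4.3.3): filterByExpr, TMM factors, a quasi-likelihood fit of group over all 16 hearts, and Benjamini-Hochberg adjustment over all genes tested. Scaled CPM values used the TMM factors, and log2 CPM a prior count of 2. DESeq2 1.42.0, limma 3.58.1 on TPM with pseudocounts of 1 and 0.1, upper-quartile scaling, other filters, rats 30 to 39 alone, the number range as a covariate and leaving out each heart were the alternatives. Ratios were compared by 2-sided exact permutation tests, with intervals from inverting the test, and pairs of genes by permutation within groups (scipy 1.17.1). The scripts were tested on simulated data. The labels do not say how the hearts were batched. Saline and DOX libraries carry separate runs of library identifiers, so an effect of library order cannot be told apart from treatment. The median total was 14785006 counts in saline and 17442131 in DOX libraries. The tests weigh the group difference against the spread between these animals. Between 13784896 and 18025615 counts a library, every gene of the 6 had at least 221 counts in each heart.

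The named genes are the 6 listed, with symbols as given beside their identifiers when they were chosen. They, and the tests, were chosen with earlier results of these data known. Lists of other pathway genes and of cell type markers (18 lists) were not run, since 0 identifiers matched the RefSeq table used for promoters. Fits within rats 30 to 39, or with the number range as a covariate, that also leave out rat 32 or rat 37 were added after seeing the data.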

Additional observations from a re-analysis of the deposited data

Results flagged for a closer look

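In 3 of 16 groups of values 1 heart lay farther from the rest than Dixon's test allows at 95%, where chance gives about 1 in 20, or 0.8 of 16. The 16 groups share hearts and libraries and are not independent, so whether 3 exceeds chance was not tested. DOX rat 32 had the lowest Ldhb level of its group at 1519 TMM-scaled CPM, with the next DOX heart at 2803. Saline rat 37 had the highest Slc2a1 to Slc2a4 ratio of its group at 0.162, with the next saline heart, rat 36, at 0.0883. DOX rat 32 had the highest Slc2a1 to Slc2a4 ratio among treated hearts at 0.153, with the next at 0.0864. Rat 32 also had the highest TMM factor of the 16 libraries, 1.36, but a ratio within a heart does not use that factor.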

How the results depend on the processing

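The lower Slc2a4 level in DOX hearts kept its direction in 29 of 29 alternatives, at -0.61 to -0.32 with an adjusted p (edgeR, DESeq2 or limma) of 0.0378 to 0.499. Its weakest value, -0.32, came with the covariate and without DOX rat 32. Hk2 kept its direction in 29 of 29, but at -0.304 to -0.00926 with an adjusted p of 0.298 to 0.980 (same tests). Without each heart in turn, the Slc2a4 log2 fold change ran from -0.60 to -0.39, and the number of the 6 genes called from 0 to 1, the 1 being Slc2a4 without saline rat 37. Slc2a1 turned to -0.0927 within rats 30 to 39 and to -0.0881 with the number range as a covariate, and to -0.10 and -0.11 in those fits without DOX rat 32, but was 0.18 and 0.18 in them without saline rat 37. Gapdh turned to 0.0904 and 0.0905 with limma at TPM pseudocounts of 1 and 0.1, to 0.0856 within rats 30 to 39 and 0.0923 with the covariate, and to 0.18 and 0.18 in those fits without rat 32, but was -0.16 and -0.16 in them without rat 37. For Gapdh, leaving out 1 heart gave -0.129 to 0.0776. In the same fits without rat 32 Hk2 was at -0.00926 and -0.0113, Ldha at 0.00771 and 0.00579 and Ldhb at 0.0167 and 0.0162, each within its standard error of 0.

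The Ldha to Ldhb difference became 0.24 as a difference of medians, and -0.107 to 0.0211 without each heart in turn. The Slc2a1 to Slc2a4 difference was 0.68 without rats 37 and 32 together, and 0.50 to 0.84 without each heart in turn. The number of correlated pairs was 5 with all hearts, 1 on log2(TPM + 1), 1 without rats 37 and 32 together, 1 in saline hearts alone and 0 to 6 without each heart in turn, with 0 without DOX rat 32 and 3 without DOX rat 38. Of all genes, DESeq2 called 1574, limma 255 or 285 on TPM, the fit within rats 30 to 39 none (0) and the fit with the covariate 2, against 851 with all hearts. Without rat 37 those last fits called 307 and 347 genes. Without each heart in turn edgeR called 345 to 1762 genes. The cause of these changes was not tested. No paired analysis was possible because each rat number occurs in 1 group only. The alternatives for pathway lists were not run. The common biological coefficient of variation was 0.316, and with 6 DOX hearts the 95% intervals of 5 of the 6 genes include both signs.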
